A study of Mus musculus with 6 samples.

Results

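The acute phase plasma proteins described here are encoded by Saa1, Saa2, Saa3, Saa4, Crp, Hp, Hpx, Orm1, Orm2 and Lcn2. The genes were taken by symbol from a list, and all 10 stand among the 14669 rows of the deposited table, 1 row each. All 10 passed a filter of a mean of at least 1 FPKM (fragments scaled to gene length and library total) over the 6 libraries, as did 10152 rows in all. The RNA came from livers of wild-type male C57BL/6J mice aged 8 weeks. A plasmid (25 µg in 2.5 ml saline) was delivered by hydrodynamic injection, a fast, large-volume injection that carries DNA into liver cells. In 3 libraries (Sc3, Sc4 and Sc5) it was plko-scramble, a control hairpin, and in the other 3 (sh1, sh3 and sh6) it was plko-shBicd2, a hairpin against Bicd2, an adaptor of the dynein motor. Concanavalin A (ConA), a lectin that activates T cells and injures the liver, was given at 15 mg/kg on day 3, and livers were taken 6 h later. Both groups had the plasmid injection and ConA, so the comparison is between plasmids during hepatitis and holds no unchallenged liver. Nothing in the labels ties each library to its own animal, so p-values measure only the spread between these libraries, which may be technical. Values of single libraries are always listed in the order Sc3, Sc4, Sc5 and sh1, sh3, sh6, with scramble first.

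In the acute phase response, cytokines from injured or infected tissue make hepatocytes change which plasma proteins they secrete. Interleukin 6 acts through its receptor and the shared chain gp130 on JAK kinases and STAT3, while interleukin 1 and TNF act through NF-kB, and C/EBP factors act at many of the same promoters. The products bind lipid, haem, haemoglobin or bacterial iron carriers, or mark microbes and dead cells for clearance. Serum amyloid A1 and A2 are the inducible forms carried on high-density lipoprotein, serum amyloid A3 is made largely outside hepatocytes, and serum amyloid A4 is the constitutive form. In the mouse C-reactive protein is a minor reactant, unlike in humans, and its relative serum amyloid P, from Apcs, is a major one.

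Sequencing depth, worked out from the size of 1 read in the FPKM, was 16.03 to 18.9 M reads and overlapped between groups. The FPKM totals did not overlap, at 365545 to 377559 over the scramble libraries and 392184 to 405732 over the shBicd2 libraries. The TPM scale, an alternative given below, sets these totals equal. Bicd2, the targeted gene, read 3.13 to 4.14 FPKM over the scramble libraries and 2.57 to 3.61 FPKM over the shBicd2 libraries. These ranges overlap (log2 fold change -0.17 ± 0.16 SE by limma, adjusted p = 0.624), so "shBicd2" means the libraries labelled so. Library sh1 held 1.01 times the scramble mean of Bicd2, and sh3 and sh6 held 0.722 and 0.833 times. Without sh1 the groups did not overlap, and the log2 fold change was -0.27 (limma adjusted p = 0.392). Of the 10152 genes tested, limma called 0 at an adjusted p of 0.05, with 1593 at an unadjusted p below 0.05. Its voom variant on recovered reads also called 0, with 1575 unadjusted. Hepatocyte transcripts were abundant throughout, with Alb, the gene of albumin, at 15373 to 21155 FPKM in the scramble group and 18944 to 26213 FPKM in the other.

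Promoter sequences from RefSeq (GRCm38.p6) were at hand for 8 of the 10 genes, each 300 bases, from 250 before the start site to 50 after it. The letters searched, on both strands, were TTNNGNAA for C/EBP, TTCNNNGAA for STAT, TATAAA for the TATA box and, for kappaB (the NF-kB site), GGG and CC with any 5 bases between them. The windows of Saa1 and Saa2 are shown because these genes kept a nearly fixed ratio in every library, that of Orm2 because it varied most between libraries, and that of Crp because its groups stood apart downwards. Each is written 5′ to 3′ on the gene's strand, and capitals mark every match.
Saa1: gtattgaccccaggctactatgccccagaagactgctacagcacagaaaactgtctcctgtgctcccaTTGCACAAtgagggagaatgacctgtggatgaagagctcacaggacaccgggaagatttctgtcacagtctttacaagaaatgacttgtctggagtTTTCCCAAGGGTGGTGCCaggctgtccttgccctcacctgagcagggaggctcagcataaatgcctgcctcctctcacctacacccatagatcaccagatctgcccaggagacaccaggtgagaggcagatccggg
Saa2: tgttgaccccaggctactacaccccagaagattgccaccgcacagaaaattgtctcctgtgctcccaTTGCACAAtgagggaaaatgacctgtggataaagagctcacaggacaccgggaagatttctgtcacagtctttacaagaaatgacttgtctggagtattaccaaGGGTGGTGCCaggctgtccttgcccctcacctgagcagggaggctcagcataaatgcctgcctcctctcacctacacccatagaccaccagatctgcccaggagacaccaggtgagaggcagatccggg
Orm2: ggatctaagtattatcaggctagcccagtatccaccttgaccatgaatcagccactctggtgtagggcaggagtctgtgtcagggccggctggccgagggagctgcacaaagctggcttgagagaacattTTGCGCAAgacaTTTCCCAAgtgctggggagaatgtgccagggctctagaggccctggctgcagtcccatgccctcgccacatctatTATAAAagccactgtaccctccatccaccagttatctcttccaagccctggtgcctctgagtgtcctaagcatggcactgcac
Crp: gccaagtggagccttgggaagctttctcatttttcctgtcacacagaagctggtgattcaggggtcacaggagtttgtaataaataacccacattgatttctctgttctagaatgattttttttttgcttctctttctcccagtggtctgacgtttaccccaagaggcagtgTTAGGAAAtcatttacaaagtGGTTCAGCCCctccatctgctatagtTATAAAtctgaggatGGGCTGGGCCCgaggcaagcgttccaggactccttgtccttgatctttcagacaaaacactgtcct
They lie at chr7:46742931-46743230 (minus strand), chr7:46751583-46751882 (plus strand), chr4:63362199-63362498 (plus strand) and chr1:172697806-172698105 (plus strand).

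The Saa1 and Saa2 windows were 95.3% identical over an alignment of 301 columns, with 12 mismatches and 2 gap positions. Both hold a C/EBP match at about the same place (-182 to -175 in Saa1 and -183 to -176 in Saa2, counted from the start site) and the same kappaB letters (from -78 in Saa1 and -79 in Saa2). Saa1 holds a further C/EBP match from -86 to -79, directly before its kappaB match, that the Saa2 window lacks. Orm2 holds 2 C/EBP matches, from -120 and -108, and a TATA match from -33. Crp holds 1 C/EBP match from -78, a TATA match from -31 and 3 kappaB matches, of which those from -16 and -15 overlap on opposite strands. A C/EBP match stood in 8 of the 8 windows, against 40.7% of 32817 RefSeq windows of the same length. A kappaB match stood in 5 of 8 (50.8% of all windows), a TATA match in 2 of 8 (13.6%) and a STAT match in 0 of 8 (8.29%). These matches describe letters, and no binding was measured.

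**Figure D1:**
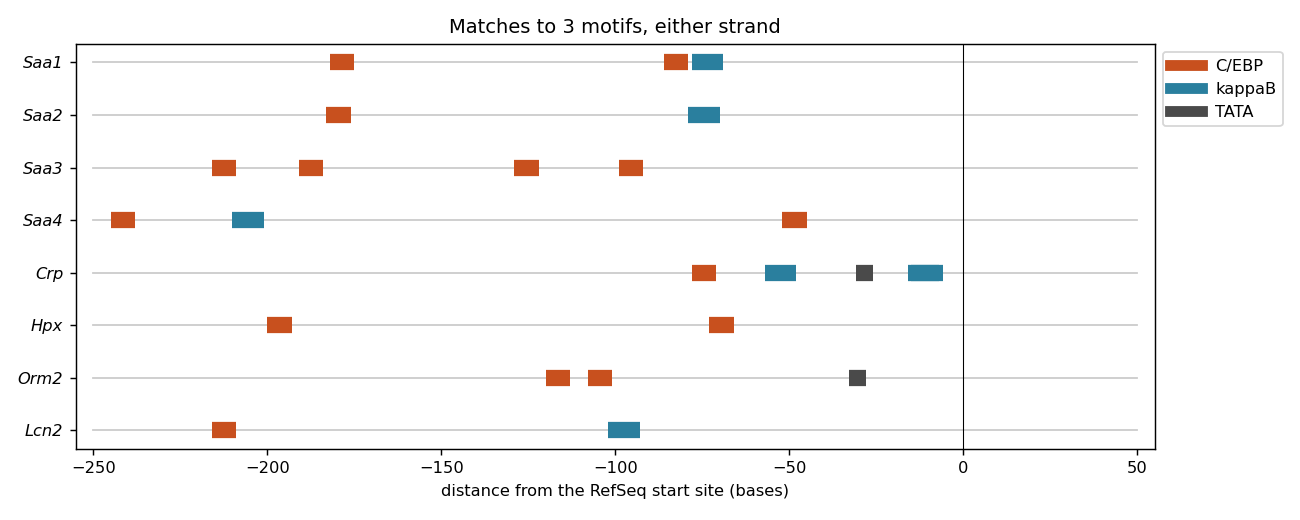
Matches to the C/EBP, kappaB and TATA letters in 8 promoter windows, by distance in bases from the RefSeq start site (x axis), with 1 line per gene. Saa1 and Saa2 share the placement of their matches apart from 1 C/EBP match, and all 8 windows hold a C/EBP match.

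The 10 genes were among the most abundant transcripts of these livers. Together they took 4.92%, 5.33% and 5.25% of all counted reads with the scramble plasmid and 9.19%, 4.33% and 4.72% with shBicd2. Ranked by mean FPKM over the 6 libraries, Hpx and Hp stood at places 3 and 4 of the table, and Crp, the last of the 10, at place 161. The reads behind single values ran from 5461 (Orm2 in sh3) to 513419 (Hp in sh1), so counting error is small beside the spread between libraries.

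The order of the levels depended on the length a gene was divided by. The deposited FPKM use all annotated exons, retained introns included, and with these lengths the reads of all 10 genes came out whole. For Saa1 that is 2478 bases against 609 in its main coding transcript, for Saa2 2518 against 606, for Saa3 2606 against 555 and for Lcn2 2623 against 915. For Orm1, Orm2, Hpx and Saa4 both lengths are the same. In scramble libraries the order by FPKM was Hpx, Hp, Orm1, Saa2, Saa1, Lcn2, Orm2, Saa3, Crp and Saa4. The ranges of Orm1 and Saa2, Saa2 and Saa1, Orm2 and Saa3, and Crp and Saa4 overlapped between libraries. Within each scramble library Orm1 stood above Saa2, Saa2 above Saa1 and Orm2 above Saa3. The order of Crp and Saa4 was not the same in all scramble libraries, with Crp below Saa4 in Sc4. Scaled to the main transcript instead, Saa2 came to 10472 ± 1481 (SD, n = 3) on the FPKM scale, level with Hpx at 10759 ± 345 (SD, n = 3) and Hp at 9860.3 ± 373 (SD, n = 3). Saa3 came to 3172 ± 623 (SD, n = 3) on that scale, overlapping Orm1 at 3391 ± 446 (SD, n = 3). Fold changes of 1 gene between libraries do not depend on this choice.

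**Figure D2:**
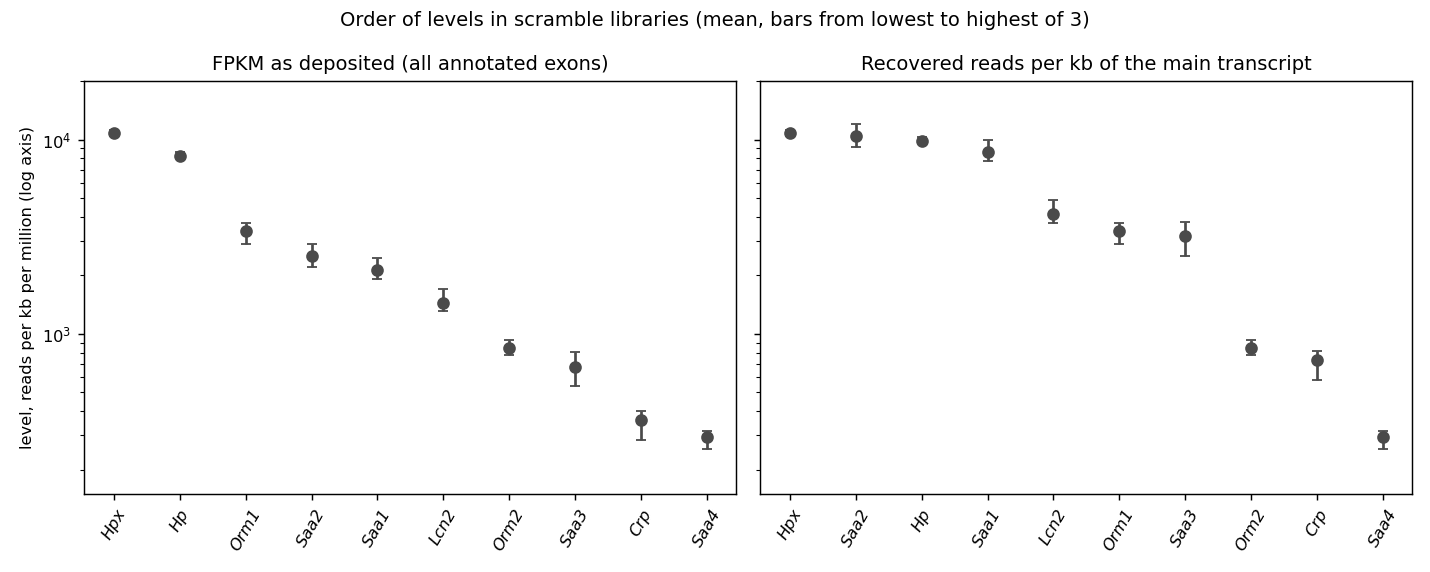
Levels of the 10 genes in the scramble libraries on a log axis, ordered from high to low, as deposited FPKM over all annotated exons (left) and as the same reads scaled to the main transcript (right). Points are means of 3 libraries and bars run from the lowest to the highest; Saa1 and Saa2 have means of 2117 and 2520.3 FPKM on the left. On the right the range of Saa2 overlaps those of Hpx and Hp, while that of Saa1 overlaps Hp and lies below Hpx.

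None of the 10 genes passed an adjusted p of 0.05 between the groups in limma, where 0.0% of all tested genes did. At an unadjusted p below 0.05 (15.7% of all tested genes) there was 1 of the 10: Crp, in the lower direction (12.7%), with 0 of the 10 in the higher direction (2.97%). The median log2 fold change (shBicd2 minus scramble, on the log2(FPKM + 1) scale) was 0.097 over the 10 genes and -0.064 over all tested genes. The sign of the members' median was not stable: it was -0.27 without sh1, -0.14 with quantile normalization, -0.11 with array weights and 0.30 without sh3. The groups did not overlap for 2 genes (24.4% of all tested genes): Crp, lower in shBicd2 (18.7%), and Saa4, higher in shBicd2 (5.7%).

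The libraries of the shBicd2 group differed among themselves. In sh1, 8 of the 10 genes lay above every scramble library (39.2% of all tested genes), 1 below (41.5%), and 6 reached at least 1.5 times the scramble mean (19.2%). In sh3, 1 lay above every scramble library (15.3%) and 7 below (56.1%), and in sh6, 2 above (32.9%) and 7 below (37.1%). In sh3 and sh6, 0 of the 10 reached 1.5 times the scramble mean, where 3.4% and 6.01% of all tested genes did.

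**Figure D3:**
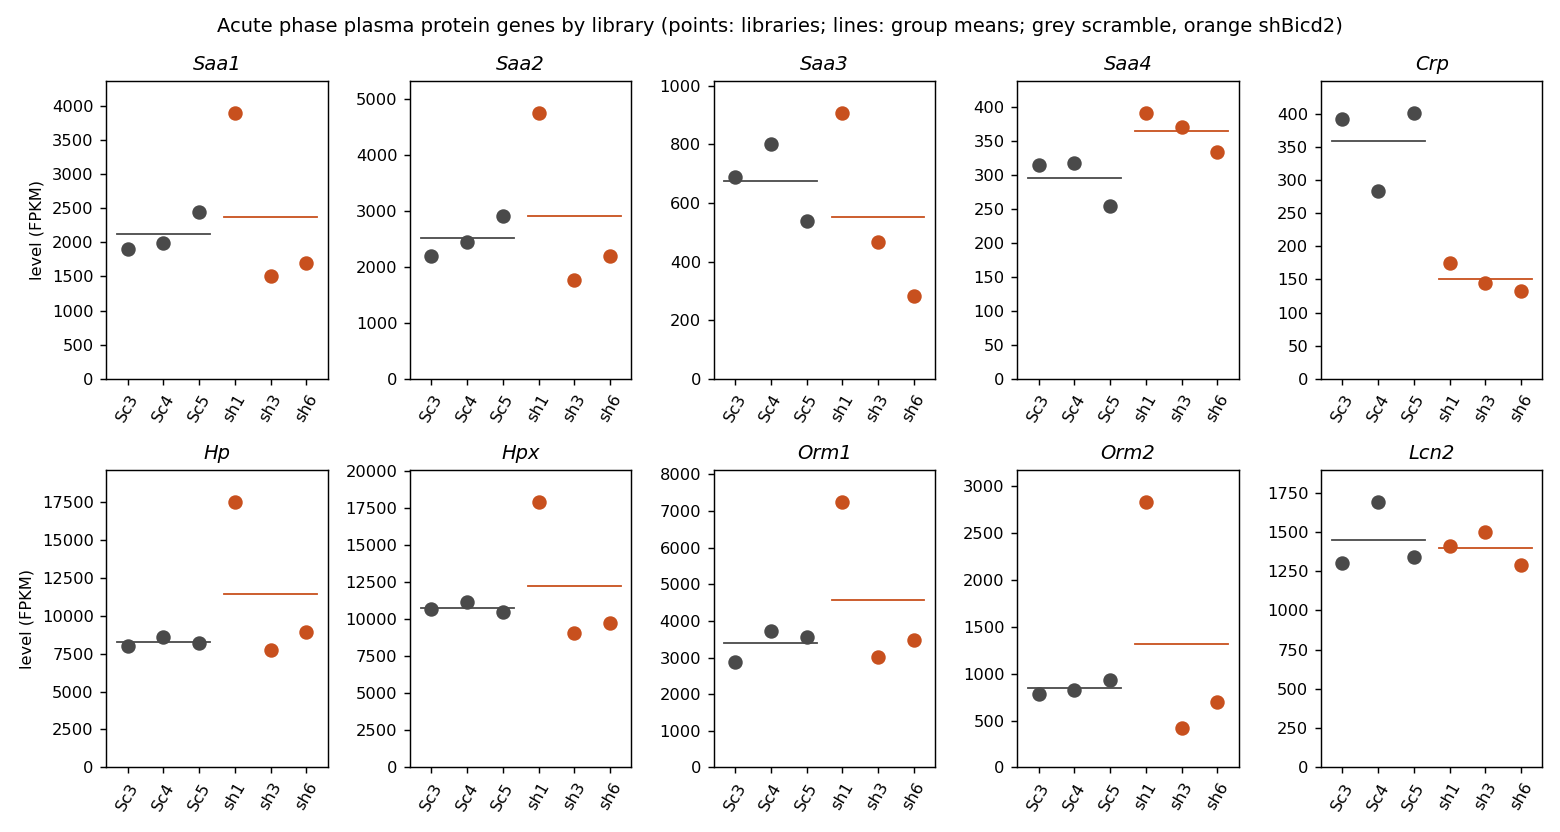
Level in FPKM (y axis, from 0, its own scale in each panel) of each of the 10 genes in the 6 libraries (points); lines are group means, grey for scramble and orange for shBicd2. Library sh1 is the highest point for Saa1, Saa2, Saa3, Saa4, Hp, Hpx, Orm1 and Orm2; Crp is lower in all 3 shBicd2 libraries.

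Among the serum amyloid A genes, Saa1 (chromosome 7, 46740497 to 46742980, minus strand) read 1906, 1995 and 2449.7 FPKM with the scramble plasmid and 3898, 1502 and 1705 FPKM with shBicd2. The sh1 value was the highest and those of sh3 and sh6 the lowest of the 6, so the scramble libraries lay between those of the other group. The limma log2 fold change came to 0.033 ± 0.35 (SE; 95% interval -0.80 to 0.87; adjusted p = 0.9749). Saa2 (chromosome 7, 46751790 to 46754313, plus strand) read 2204, 2451 and 2906 FPKM with the scramble plasmid and 4757, 1762 and 2198 FPKM with shBicd2. Its order of libraries placed sh1 above and sh3 and sh6 below the scramble range, as for Saa1 (log2 fold change 0.077 ± 0.36 SE, limma adjusted p = 0.935). Unlike for Saa1, sh6 lay only just below that range, at 2198 FPKM against 2204 FPKM in Sc3.

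The ratio of Saa2 to Saa1 within a library stayed between 1.16 and 1.29 in all 6 libraries, while Saa1 itself ran over a 2.60-fold range in the shBicd2 libraries. The difference of this log2 ratio between groups was 0.044 (exact two-sided permutation p = 0.5, adjusted over 12 ratios 0.933). Saa1 and Saa2 are close copies. Of the 50-base windows of the main Saa1 transcript 13.2% occur exactly in Saa2, and of the 100-base windows 0%. Neither the read length nor the handling of reads with several matches is named in any source at hand. A split of such reads between the copies would leave the sum of both genes largely unchanged, while dropping them would lower it. The sum was 4110.2, 4446 and 5356 FPKM with the scramble plasmid and 8655, 3263 and 3903 FPKM with shBicd2 (exact permutation p = 1).

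Saa3 (chromosome 7, 46711998 to 46715700, minus strand) read 687, 802 and 537 FPKM with the scramble plasmid and 907, 466 and 283 FPKM with shBicd2. Here sh6 was lowest, below sh3, and the groups overlapped (log2 fold change -0.44 ± 0.41 SE, limma adjusted p = 0.638). With array weights, which count sh1 and sh3 least (weights 0.180 and 0.284 against 4.67 for sh6), the log2 fold change was -1.15 with an adjusted p of 0.00720, where 26.7% of all tested genes passed. Without sh6 it was -0.036. The 12 markers of Kupffer cells and macrophages, which can make this protein, summed to 193, 175 and 225 FPKM with the scramble plasmid and 230.3, 113 and 156 FPKM with shBicd2. The 16 neutrophil markers summed to 719, 813 and 971 FPKM against 925, 694 and 427 FPKM. Such sums follow the most abundant markers. Of the 12 Kupffer cell and macrophage markers 10 had a negative and 2 a positive log2 fold change. Their sum was highest in sh1, but their median difference from the scramble mean there was 0.060 on the log2(FPKM + 1) scale. The markers went both ways in sh1, named here after their values were seen. Clec4f, Adgre1 and Cd68 lay below every scramble library, while C1qa, C1qb, C1qc and Csf1r lay above every scramble library. The part of these cells in the Saa3 values was not tested.

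Saa4 (chromosome 7, 46727998 to 46732603, minus strand) read 314, 316 and 254 FPKM with the scramble plasmid and 391, 369.8 and 333 FPKM with shBicd2. All shBicd2 values lay above the scramble values, sh6 by the least. The log2 fold change was 0.31 ± 0.16 (SE), with an unadjusted p of 0.094 and an adjusted p of 0.397 in limma. Over the alternatives it ran from 0.17 to 0.40 and passed in none.

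Hp and Hpx encode haptoglobin, which binds free haemoglobin, and hemopexin, which binds free haem. Hp (chromosome 8, 109575128 to 109579172, minus strand) read 7993, 8603 and 8178 FPKM with the scramble plasmid, a range of 1.08-fold, and 17502, 7761 and 8906 FPKM with shBicd2. Library sh1 held 2.12 times the scramble mean, while sh3 and sh6 held 0.940 and 1.08 times. The log2 fold change was 0.37 ± 0.29 (SE; limma adjusted p = 0.579), and without sh1 it was 0.01.

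Hpx (chromosome 7, 105591613 to 105600137, minus strand) read 10687, 11135 and 10456 FPKM with the scramble plasmid and 17935, 9079 and 9766 FPKM with shBicd2. The scramble libraries again lay between sh1 above and sh3 and sh6 below (log2 fold change 0.12 ± 0.26 SE, limma adjusted p = 0.852). The ratio of Hp to Hpx did separate the groups, at 0.748, 0.773 and 0.782 with the scramble plasmid and 0.976, 0.855 and 0.912 with shBicd2. This is a 1.19-fold difference, in the same direction in all 3 shBicd2 libraries (exact two-sided permutation p = 0.1, the smallest that 3 against 3 allow; 0.4 adjusted over 12 ratios). A ratio within a library does not move with the scaling between libraries. It does not say which gene of the pair differed, and at this p an unequal change of the pair was not established.

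Orm1 and Orm2 encode orosomucoids, also called alpha-1-acid glycoproteins, which bind drugs and lipids in plasma. Orm1 (chromosome 4, 63344560 to 63348163, plus strand) read 2887, 3735 and 3552 FPKM with the scramble plasmid and 7252, 3004 and 3465 FPKM with shBicd2. Outside sh1 the groups overlapped (log2 fold change 0.33 ± 0.33 SE, limma adjusted p = 0.664). Orm2 (chromosome 4, 63362449 to 63365878, plus strand) read 779, 832 and 929.7 FPKM with the scramble plasmid and 2837, 424 and 695 FPKM with shBicd2. The shBicd2 libraries thus ran over a 6.69-fold range, the widest of the 10 genes, against 1.19-fold in scramble. Library sh1 stood at 3.35 times and sh3 at 0.501 times the scramble mean, and the group difference was 0.16 ± 0.63 (SE; limma adjusted p = 0.924).

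Orm1 and Orm2 share more sequence than the Saa pair, with 20.4% of 50-base and 6.95% of 100-base windows of Orm1 found in Orm2. Their sum was 3666, 4567 and 4482 FPKM with the scramble plasmid and 10089, 3428 and 4160.3 FPKM with shBicd2 (exact permutation p = 0.9). The ratio of Orm2 to Orm1 varied more than that of the Saa pair, at 0.270, 0.223 and 0.262 with the scramble plasmid and 0.391, 0.141 and 0.200 with shBicd2 (exact permutation p = 0.7). Orm3, the third copy, was low, at 23.3, 46.03 and 90.1 FPKM with the scramble plasmid and 85.1, 54.97 and 18.04 FPKM with shBicd2. Its RefSeq promoter window was 86.6% identical to that of Orm2.

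Crp (chromosome 1, 172698055 to 172833031, plus strand) encodes C-reactive protein, a pentraxin that binds phosphocholine on microbes and dying cells. It read 392, 283 and 401 FPKM with the scramble plasmid and 174, 144 and 133 FPKM with shBicd2. All shBicd2 values lay below all scramble values, and the 3 were within 1.31-fold of each other, sh1 included. The mean was 359 ± 65.6 (SD, n = 3) FPKM in scramble and 150.4 ± 21.3 (SD, n = 3) in shBicd2, or 0.419 times as high. The log2 fold change was -1.24 ± 0.20 (SE), with a 95% interval from -1.71 to -0.77 and an unadjusted limma p of 0.000394. Adjusted over all tested genes, p was 0.152 in limma, so Crp did not pass. With array weights it passed (adjusted p = 0.00179), as 26.7% of all tested genes did. Over the other alternatives the adjusted p ran from 0.0524 (without sh3) to 0.610 (without Sc5), and the fold change from -1.40 to -1.15 on the log2 scale.

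Against Saa1 of the same library, Crp stood at 0.205, 0.142 and 0.164 with the scramble plasmid and 0.0447, 0.0958 and 0.0780 with shBicd2. Against Alb it stood at 0.0185, 0.0184 and 0.0257 against 0.00920, 0.00549 and 0.00620. Both ratios separated the groups, in each case with the smallest p that 3 against 3 allow (exact permutation p = 0.1; 0.4 adjusted over 12 ratios). The lower level of Crp in shBicd2 was thus present on scales that do not depend on the library total. Of the 12 ratios between members or to Alb, groups were apart for 3 (these and Hp to Hpx), or for 7 without sh1. No such share was taken over other gene pairs, and several of the 12 ratios share a gene. Groups also stand apart more easily when a library is left out, so these counts are no result by themselves.

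**Figure D4:**
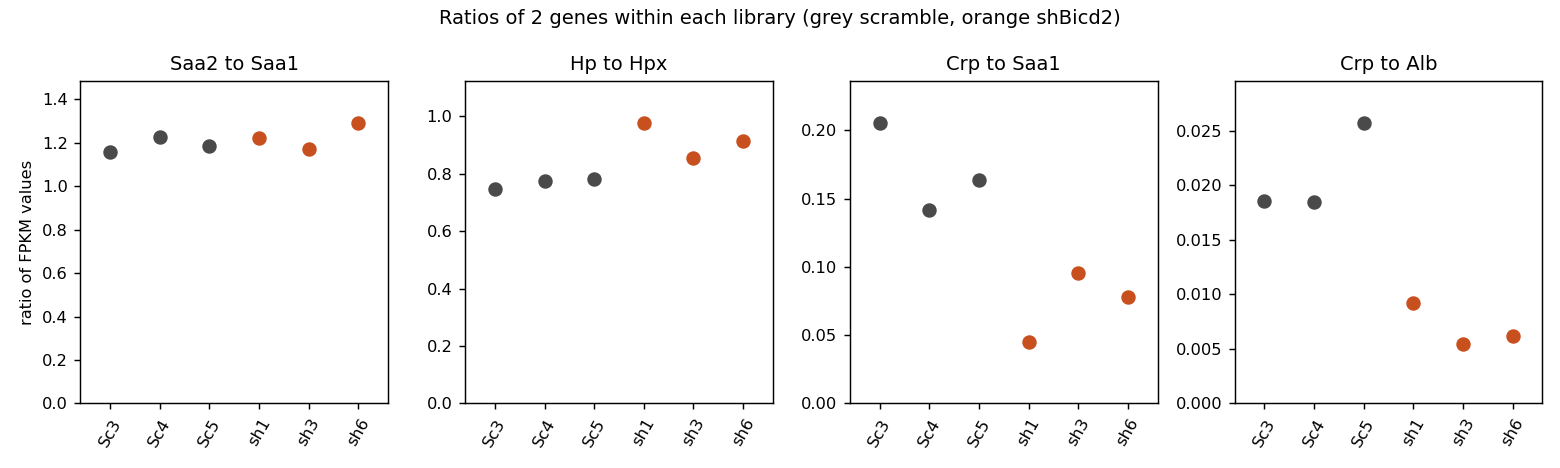
Ratio of the FPKM of 2 genes within each library (y axes from 0), grey for scramble and orange for shBicd2. Saa2 to Saa1 stays between 1.16 and 1.29, Hp to Hpx is higher and Crp to Saa1 and Crp to Alb are lower in all 3 shBicd2 libraries.

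Lcn2 (chromosome 2, 32384633 to 32388252, minus strand) encodes lipocalin 2, which withholds iron from bacteria by binding their siderophores. It read 1304, 1693 and 1342 FPKM with the scramble plasmid and 1409, 1501 and 1287 FPKM with shBicd2. The 6 values were interleaved, and sh1 lay inside the scramble range. The log2 fold change was -0.041 ± 0.16 (SE; 95% interval -0.42 to 0.34; limma adjusted p = 0.922). Against Saa1 of the same library Lcn2 stood at 0.684, 0.849 and 0.548 against 0.362, 0.9992 and 0.755.

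Leaving out sh1 changed the sign for 5 of the 10 genes (Saa1, Saa2, Hpx, Orm1 and Orm2). Of the 10, 4 then had an unadjusted limma p below 0.05, all lower in shBicd2, where 17.7% of all tested genes had one in either direction. Their log2 fold changes were -1.35 for Crp, -0.88 for Saa3, -0.64 for Orm2 and -0.395 for Saa1. Groups then stood apart downwards for 6 genes, these 4 with Saa2 and Hpx (27.4% of all tested genes), and 0 of the 10 passed an adjusted p of 0.05. For Saa2 the margin was narrow, at 2198 FPKM in sh6 against 2204 FPKM in Sc3.

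Transcription factors, brakes and receptors of the cytokine signal had their lowest list medians in sh1, the library where most of the 10 genes were highest, while the inducing cytokines had theirs in sh6. In sh1 the median difference from the scramble mean on the log2(FPKM + 1) scale was 0.81 for the 10 genes. It was -1.01 for the transcription factors that act at acute phase promoters (15 tested), -1.12 for the brakes on cytokine signalling (14) and -0.65 for receptors and signal transducers (17), against -0.017 for all tested genes. In sh6 these 3 medians were -0.73, -0.67 and -0.12, with -0.17 for the 10 genes. In sh3 they were -0.30, -0.18 and -0.18, with -0.37 for the 10 genes and -0.18 for all tested genes. The 4 tested cytokines had medians of -0.30 in sh1, -0.026 in sh3 and -0.49 in sh6. For the counts of these and the following lists, the shares of all tested genes with an unadjusted limma p below 0.05 are 15.7% in either direction, 12.7% lower and 2.97% higher.

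**Figure D5:**
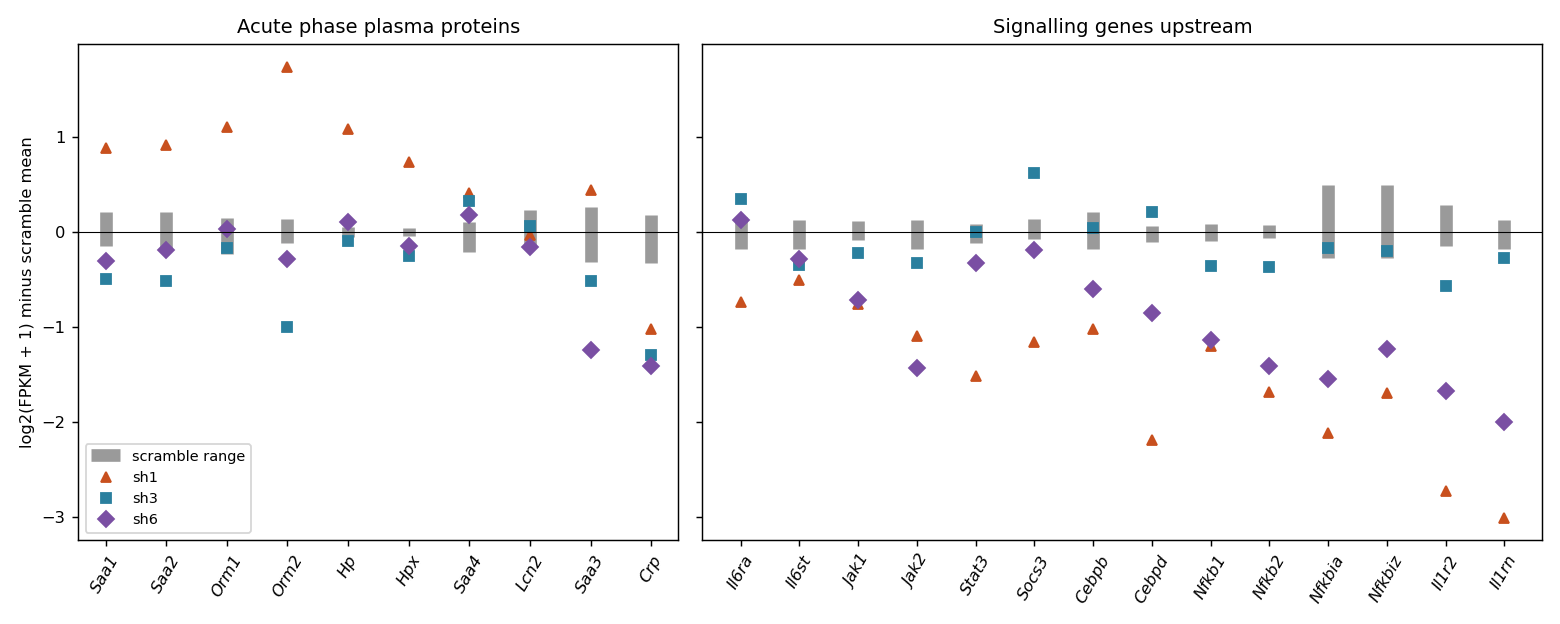
Difference of each shBicd2 library from the scramble mean on the log2(FPKM + 1) scale (y axis). The 10 acute phase genes are on the left and 14 picked signalling genes on the right, and grey bars give the range of the 3 scramble libraries. In sh1 (triangles) Saa1, Saa2, Orm1, Orm2, Hp and Hpx lie above the scramble range and the 14 picked genes below it. The 14 do not stand for all signalling genes. Il11ra1 (7.96 FPKM in sh1, 4.28 to 4.88 over scramble) and Cebpa (126, 92.9 to 119), not drawn and named after their values were seen, lay above it.

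Of the cytokines, Il6 was below the filter, at 0.625, 0.184 and 0.668 FPKM with the scramble plasmid and 0.0225, 0.273 and 0.0218 FPKM with shBicd2. Il1b read 4.32 to 5.78 FPKM over scramble and 1.03, 4.23 and 1.83 FPKM with shBicd2 (log2 fold change -0.94, limma adjusted p = 0.245). Tnf read 2.44 to 3.27 FPKM over scramble and 1.44, 3.71 and 1.51 FPKM with shBicd2. Of the 4 tested cytokine genes 1, Il1b, had an unadjusted p below 0.05 (15.7% of all tested genes), and 0 passed.

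Among receptors and kinases, Il6st, the gp130 chain, read 15.1 to 18.96 FPKM over scramble and 11.9, 13.3 and 13.9 FPKM with shBicd2, with groups apart. Il6ra, which confers specificity for interleukin 6, read 6.00 to 7.83 FPKM over scramble and 3.76, 9.13 and 7.68 FPKM with shBicd2. The kinase gene Jak1 read 22.9 to 26.5 FPKM over scramble and 13.99, 20.7 and 14.5 FPKM with shBicd2, and Jak2 8.98 to 11.3 against 4.32, 8.02 and 3.19 FPKM, both with groups apart. Il22ra1, the receptor of interleukin 22, another STAT3 activator in hepatocytes, read 7.60 to 9.41 FPKM over scramble and 0.767, 2.39 and 2.55 FPKM with shBicd2. Its log2 fold change of -1.74 ± 0.28 (SE) had the smallest p of the list, with a limma adjusted p of 0.152. Of the 17 tested genes 7 had an unadjusted p below 0.05 (15.7% of all tested genes), 6 of them lower in shBicd2 and 1 higher, and 0 passed. The list's median log2 fold change was -0.13, -0.081 without sh1, -0.33 without sh3 and -0.24 without sh6.

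Stat3 itself read 44.5 to 51.02 FPKM over scramble and 16.2, 48.3 and 38.3 FPKM with shBicd2. Socs3, its feedback inhibitor, read 45.6 to 53.2 against 21, 74.7 and 42.1 FPKM. Cebpb, a C/EBP factor, read 243 to 320.1 against 136, 283 and 181 FPKM, and its relative Cebpd 18.98 to 21.5 against 3.71, 23.9 and 10.9 FPKM. These 4 genes were lowest in sh1, and in sh3 they lay within the scramble range or above it. The NF-kB subunit gene Nfkb1 read 7.08 to 8.16 against 2.75, 5.73 and 2.91 FPKM, with groups apart (log2 fold change -0.90, limma adjusted p = 0.195), and Nfkb2 12.9 to 14.3 against 3.51, 10.3 and 4.44 FPKM. Klf6, a zinc finger factor, read 42 to 67.6 against 3.45, 28.9 and 8.64 FPKM. Of the 15 tested factors 7 had an unadjusted p below 0.05, all lower in shBicd2 (12.7% of all tested genes), and 0 passed. Their median log2 fold change was -0.61, and -0.32 without sh1.

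Several brakes on the signal showed the same order of libraries, sh1 lowest, then sh6, then sh3. Il1rn, the interleukin 1 receptor antagonist and itself an acute phase product, read 39.8 to 49.3 FPKM over scramble and 4.74, 37.1 and 10.6 FPKM with shBicd2. Il1r2, a decoy receptor, read 9.41 to 13.04 against 0.746, 6.78 and 2.63 FPKM, and Nfkbia, an NF-kB inhibitor, 74.5 to 127 against 20.03, 80.2 and 30.1 FPKM. Of the 14 tested genes listed as brakes 6, Nfkbiz among them, had an unadjusted p below 0.05, all lower in shBicd2 (12.7% of all tested genes), and 0 passed. Whether each listed gene acted as a brake in these livers was not tested. Their median log2 fold change was -0.59, -0.34 without sh1 and -0.89 without sh3.

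Among other positive acute phase genes, 36 were tested: 5 had an unadjusted p below 0.05, 2 higher and 3 lower in shBicd2, and 0 passed. That is 13.9% of the list, near the 15.7% of all tested genes. Their median log2 fold change was -0.11 (-0.06 without sh1, -0.17 without Sc3 and -0.21 with quantile normalization), and the median difference of sh1 from the scramble mean was -0.12. Apcs, the gene of serum amyloid P, showed the library order of Saa1 in sh1, sh6 and sh3, at 885, 983 and 984 FPKM with the scramble plasmid and 2178, 668 and 797 FPKM with shBicd2. Fgb, the fibrinogen beta chain, read 3615 to 3847 FPKM over scramble and 3396, 3713 and 4090.3 FPKM with shBicd2, within a narrow range in all 6. Serpina3n, a protease inhibitor, was lowest in sh1, at 2734 to 4045 against 1639, 2832 and 3426 FPKM. Cfb, complement factor B, was lower in all 3 shBicd2 libraries, at 8.85 to 12.4 against 3.97, 5.96 and 4.96 FPKM (log2 fold change -0.91, limma adjusted p = 0.166). Lbp, which binds bacterial lipopolysaccharide, read 84.5 to 90.1 against 65.6, 75.8 and 63.7 FPKM, with groups apart, and Serpina1c, one of a cluster of close copies, 378 to 458 against 636, 597 and 525 FPKM.

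Negative acute phase genes, which encode plasma proteins made less during inflammation, had a median log2 fold change of 0.17 over 16 tested genes, or 0.078 on the TPM scale. Of these, 4 had an unadjusted p below 0.05 as higher in shBicd2 (2.97% of all tested genes) and 1 as lower (12.7%), and 0 passed. Groups stood apart upwards for 7 of the 16, where 5.7% of all tested genes did. Ttr, transthyretin, read 1646, 1814 and 1647 FPKM with the scramble plasmid and 2525, 2458 and 2292 FPKM with shBicd2 (log2 fold change 0.51 ± 0.13 SE, limma adjusted p = 0.185). Apoa1, the main protein of high-density lipoprotein, which serum amyloid A displaces, read 3206, 2898 and 3083 against 4883, 4750.3 and 4079 FPKM. For both genes the 3 shBicd2 libraries were alike, sh1 included. Serpina7, the gene of thyroxine-binding globulin, was the one lower in shBicd2, at 34.6, 19.5 and 34.98 against 9.77, 20.2 and 17.7 FPKM.

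Among receptors and partners of the members, Tlr2, which senses serum amyloid A and bacterial lipoprotein, read 32.5 to 40.2 FPKM over scramble and 3.40, 23.5 and 6.24 FPKM with shBicd2. Fpr2, a chemotactic receptor for serum amyloid A, read 4.13 to 6.16 against 4.65, 6.59 and 2.32 FPKM. Hmox1, which degrades haem, the cargo of hemopexin, read 322, 234 and 507 against 51.4, 349.9 and 82.6 FPKM. Cd163, the macrophage receptor for haptoglobin bound to haemoglobin, stayed below 1 FPKM in all 6 libraries, under the filter. Of 16 tested genes 3 (18.8%) had an unadjusted p below 0.05, all lower, near the 15.7% of all tested genes in either direction and 12.7% lower, and 0 passed.

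Markers of other cells differed between libraries as well, and members of 1 list went different ways. S100a8 and S100a9, abundant neutrophil proteins, read 68.9 to 104 and 236 to 316 FPKM over scramble and were lowest in sh6, at 28.3 and 97.2 FPKM. Ly6g, which marks mature neutrophils, read 3.04 to 3.58 FPKM over scramble and 1.63, 1.92 and 1.29 FPKM with shBicd2. Granule genes made by immature neutrophils, named after their values were seen, were highest in sh1: Prtn3 read 1.22 to 4.61 FPKM over scramble and 32.2 FPKM in sh1, Camp 1.03 to 1.73 and 11.6, Ltf 1.44 to 3.72 and 12.3, Elane 0.634 to 1.02 and 3.39, and Ngp 12.2 to 26.95 and 40.3. In sh3 and sh6 Camp read 2.22 and 0.418 FPKM, Ltf 2.63 and 0.567, Elane 0.122 and 0.644, and Ngp 18.2 and 3.59. Mmp8 and Mmp9 of the same list lay below every scramble library in sh1. Mmp8 read 7.53 to 10.8 FPKM over scramble and 4.63 FPKM in sh1, and Mmp9 5.97 to 7.64 and 4.33. Of the 15 tested neutrophil markers 11 had a negative and 4 a positive log2 fold change, with a median of -0.58. Lcn2, which neutrophils also store, did not separate the groups.

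Monocyte markers summed to 85.5 to 106 FPKM over scramble and 166, 58.8 and 57.98 FPKM with shBicd2, but Lyz2 alone, also named after its values were seen, made up 117 FPKM of the sum in sh1. Of the 7 tested monocyte markers 6 had a negative log2 fold change. Their median difference from the scramble mean was 0.32 in sh1, -0.43 in sh3 and -0.56 in sh6. In sh1 Ly6c2 and Ccr2, named after their values were seen, lay above every scramble library, at 3.80 and 1.98 FPKM. Chil3 and F13a1 lay below every scramble library there. Chil3 read 26.9 to 32.9 FPKM over scramble and 18.1, 11.1 and 13.2 FPKM with shBicd2, and F13a1 1.21 to 1.51 against 0.682, 0.759 and 0.447 FPKM, both with groups apart downwards. Hepatocyte markers summed to 28217 to 33884 FPKM over scramble and 34306, 39474 and 34352 FPKM with shBicd2, of which Alb made up 18944, 26213 and 21459.8 FPKM. Of the 13 tested hepatocyte markers 4 had a positive and 9 a negative log2 fold change (median -0.051), and the median difference of sh1 from the scramble mean was -0.49. In whole liver fewer cells of a type and less RNA per cell cannot be told apart, and the part of these cells in the members' values was not tested.

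Likeness to other genes was measured as the root mean square difference of centred log2(FPKM + 1) values over the 6 libraries. The gene most like Saa1 was Saa2 (0.0520), followed by C1qc (0.0944) and Pigyl (0.111). Those most like Hpx were Coasy (0.0434), Fgfr4 (0.0566) and Cacybp (0.0707), all highest in sh1. Saa3 was nearest to Cyba (0.229), Tyrobp (0.231) and Cotl1 (0.264), and Crp to Dsc2 (0.103), Anxa2 (0.153) and Chil3 (0.176). Lcn2 was nearest to Acads (0.0722), Carhsp1 (0.0729) and Tm7sf2 (0.0734). Among the 10 genes themselves, Saa1 and Saa2 were the most alike pair, then Hp and Orm1 (0.0963) and Hp and Hpx (0.138), and Crp and Orm2 the least alike (1.02).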

How the data were processed

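Per the labels' protocols, liver RNA was taken up in Trizol, checked on a Bioanalyzer, made into TruSeq libraries and read on an Illumina NovaSeq. Per the submitters' processing notes, HISAT2 2.0.5 and featureCounts 1.5.0-p3 were used with mm10. No source at hand names the annotation, the strand setting or the handling of reads with several matches. The table gives FPKM computed by the authors, 1 column per library. Column names give the group, not the labelled replicate, and 0 columns belong to other samples.

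Exon lengths from GENCODE M21 (GRCm38) turned FPKM into whole reads (within 0.02) for 14067 of 14339 matched genes (98.1%) in all libraries, the 10 members included. Groups were compared with limma 3.58.1 (R 4.3.3; trend) on log2(FPKM + 1), two-sided, with Benjamini-Hochberg adjustment over all tested genes; this scale understates the change of low genes. Ratios and sums were compared by exact two-sided permutation, whose smallest p is 0.1. The 15 lists beside the members hold 221 entries. The rule for named genes took the members, up to 4 genes of smallest p per list and a set panel, and for 5 members the 3 nearest genes of at least 10 FPKM in the mean; some of these list genes appear only in counts. Members and lists were chosen with earlier results of these data known. The steps were tested on simulated data. Alternatives covered pseudocount, filter, scaling, moderation, weights, voom and each library left out. Alignments used Biopython 1.88, and figures matplotlib 3.10.9 in Python 3.11.15.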

Additional observations from a re-analysis of the deposited data

How the results depend on the processing

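With 3 libraries a group, 1 library decides the sign for several members, and depth is not what limits these abundant genes. Of the refits of single members, 147 kept direction and side of the threshold, 21 changed sign and 2 passed the threshold (Crp and Saa3 with array weights). Crp, Saa3, Saa4 and, but for quantile normalization, Hp kept their sign throughout. The cause of the changes was not tested.

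All tested genes past the threshold were 0, but 2709 with array weights and 0 to 291 (without sh3) over libraries left out. At an unadjusted p below 0.05 there were 1593, but 827 with a mean of at least 5 FPKM, 4186 with array weights, and, among libraries left out, 812 (without Sc5), 822 (without Sc3) and 2515 (without sh3). Members past the threshold were 0, with 2 under array weights and 0 with any library left out. At an unadjusted p they were 1, with 2 under array weights and 1 to 4 (without sh1) over libraries left out. List genes past the threshold were 0, with 69 under array weights and 0 to 17 (without sh3) over libraries left out. Ratios with groups apart ran from 3 to 7 (without sh1).

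The log2 fold change changed sign to -0.062 (Saa1) and -0.018 (Saa2) on the TPM scale. With quantile normalization it was -0.23 (Saa1), -0.18 (Saa2), -0.13 (Hp) and -0.076 (Hpx), and with array weights -0.22 (Saa1), -0.10 (Saa2), -0.11 (Hpx) and -0.21 (Orm2). Lcn2 was at 0.047 with median-of-ratios size factors. Over libraries left out Saa1 ran from -0.395 to 0.29, Saa2 from -0.35 to 0.37, Hpx from -0.19 to 0.30, Orm1 from -0.063 to 0.57, Orm2 from -0.64 to 0.73 and Lcn2 from -0.11 to 0.077; the lowest was without sh1 for the first 5 and without Sc3 for Lcn2. The sum of Saa1 and Saa2 (log2 difference 0.057) was at -0.038 on the TPM scale, -0.20 with quantile normalization and -0.37 to 0.33 over libraries left out. That of Orm1 and Orm2 (0.31) ran from -0.16 to 0.62. Of the log2 ratios, Orm2 to Orm1 ran from -0.57 to 0.16, Lcn2 to Saa1 from -0.39 to 0.35, Saa1 to Alb from -0.86 to 0.063, Hp to Alb from -0.45 to 0.37 and Orm1 to Alb from -0.53 to 0.34. Without sign change, Crp to Alb ran from -1.82 to -1.44, Crp to Saa1 from -1.51 to -0.96 and Hp to Hpx from 0.20 to 0.30.

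No paired analysis was possible because the columns carry no labelled replicate number, so the replicate block was not run.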
